A study of Mus musculus with 3 samples.

Results

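The 10 genes described here make the classical MHC class I molecule and supply it with peptide, and all 10 were found by symbol among the 32285 genes of the count tables. H2-K1 and H2-D1 encode the class I heavy chains of C57BL6 mice, and B2m encodes their shared light chain. Tap1 and Tap2 form the peptide transporter of the endoplasmic reticulum, and Tapbp encodes tapasin, which holds empty class I molecules at that transporter. Psmb8, Psmb9 and Psmb10 encode the catalytic subunits of the immunoproteasome, and Nlrc5 encodes a transactivator of class I genes. RNA molecules were counted as unique molecular identifiers (UMIs), and a level is given as UMIs of the gene per 1000000 UMIs of a cell type (CPM).

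Class I molecules display fragments of a cell's own proteins at the surface, where CD8 T cells and natural killer (NK) cells inspect them. Interferons replace the constitutive catalytic subunits of the proteasome (Psmb5, Psmb6 and Psmb7) by Psmb8, Psmb9 and Psmb10, and white blood cells carry many of these replacements without interferon. Hepatocytes are known for low class I levels, and loss of this machinery is a known route by which tumour cells evade CD8 T cells.

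The cells came from liver tumours of MYC-ON mice (C57BL6, 18 weeks old), were sorted live for CD45, the surface protein of white blood cells, and gave 1 library by 10x 3′ v3 chemistry for each of 3 groups: control, DU101 and DU102. All 3 groups carry MYC-ON. The sources used here do not give the transgene or its promoter, the identity, dose or length of treatment of DU101 and DU102, or how many animals of which sex went into a library. With 1 library a group there is no replicate and no test between groups. Intervals in brackets are exact 95% intervals, Poisson for levels and ratios and binomial (Clopper-Pearson) for shares, and they cover counting error only. A gene was called higher or lower by size, not by a test: the ratio had to reach 1.5-fold, its whole interval had to lie on the same side of 1, and both libraries together had to hold at least 30 UMIs.

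Control held 91013198 UMIs in total, DU101 106604935 and DU102 96817875, and 10154, 13799 and 11461 of their cells were kept after filtering and the removal of doublets. Cells were assigned by marker genes to 17 types with at least 25 cells in every library, of which 10 had at least 100 and entered the comparisons between libraries. The white cell types held 2 (plasma-like) to 8 (Kupffer-like) of their own 8 markers among their 10 leading genes and at most 1 of another type. The same markers set the gates, so this describes the gates and is not an independent check of them. The cell barcodes shared by a pair of libraries numbered 37 to 57, at most 0.418% of the smaller library. Xist, an RNA of female cells, was found in 56.0, 0.138 and 0.0698% of cells in control, DU101 and DU102, and Y-linked RNA in 21.0, 46.8 and 52.5%. Sex and treatment therefore cannot be told apart in any comparison with control, while DU101 against DU102 is free of this difference. Both comparisons with control share the control library.

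Hepatocyte or tumour-like cells were gated on Krt8, Krt18, Apob, Ahsg, Fgb, Ambp, Gpc3 and Hnf4a and amounted to 113 cells of control, 114 of DU101 and 192 of DU102. Hepatocytes lack CD45, so these cells are taken as what the sort left behind, a chosen remainder and not a sample of the tumour. Their leading genes were Apoa1, Ttr, Alb, Afp, Rbp4, Apoa2, Fgb, Serpina1b, Serpina1a and Spink1, and only Fgb among these is one of the gating markers. They are not split into normal and malignant hepatocytes. Ptprc, which encodes CD45, stood at 15.3, 9.28 and 17.6 CPM in control, DU101 and DU102, which is 1.65, 0.986 and 1.62% of its level in T-like cells. Of the cells, 85, 97 and 145 held no Ptprc UMI. Whether the Ptprc RNA of the rest was their own or carried over was not tested.

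The members lie on 3 mouse chromosomes (GRCm38, GENCODE vM21). Psmb9 (chr17:34181987-34187764, minus strand), Tap1 (chr17:34187553-34197225), Psmb8 (chr17:34197721-34201454) and Tap2 (chr17:34203527-34216321, all 3 on the plus strand) fill 34335 bases. The starts of Psmb9 and Tap1, which point away from each other, lie 225 bases apart in RefSeq. H2-K1 (chr17:33996017-34000347, minus strand), Tapbp (chr17:33915899-33929292, plus strand) and H2-D1 (chr17:35262730-35267499, plus strand) are on the same chromosome, within the mouse MHC. B2m (chr2:122147686-122153083, plus strand) is on chromosome 2, and Nlrc5 (chr8:94434356-94527272, plus strand) and Psmb10 (chr8:105935735-105938444, minus strand) are on chromosome 8.

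Sequence before the start of transcription is shown for 3 members whose levels parted in these cells: a heavy chain and the light chain, low in hepatocyte or tumour-like cells, and Psmb10, which was high there. RefSeq windows (GRCm38.p6) matched 8 of the 10 members, all but Tap2 and Nlrc5. Bases annotated as exon were left out. Capitals mark every match, on either strand, to the core of an interferon-stimulated response element, an interferon-gamma activated site (TTCNNNGAA), the NF-kB consensus, a CCAAT box (CCAAT, or ATTGG on the other strand) and an E-box (CACGTG). The windows are chr17:34000348-34000597 (minus strand), chr2:122147437-122147685 (plus strand) and chr8:105938445-105938642 (minus strand), each written 5′ to 3′ along the gene.
H2-K1: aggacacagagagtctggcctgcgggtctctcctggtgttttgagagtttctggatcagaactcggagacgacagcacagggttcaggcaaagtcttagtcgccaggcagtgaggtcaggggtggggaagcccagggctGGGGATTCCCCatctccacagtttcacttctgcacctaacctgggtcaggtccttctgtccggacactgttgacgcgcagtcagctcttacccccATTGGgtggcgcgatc
B2m: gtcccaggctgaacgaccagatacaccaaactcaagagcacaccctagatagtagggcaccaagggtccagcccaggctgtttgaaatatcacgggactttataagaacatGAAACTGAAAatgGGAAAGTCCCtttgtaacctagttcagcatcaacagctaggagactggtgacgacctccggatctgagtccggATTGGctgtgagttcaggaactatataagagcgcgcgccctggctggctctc
Psmb10: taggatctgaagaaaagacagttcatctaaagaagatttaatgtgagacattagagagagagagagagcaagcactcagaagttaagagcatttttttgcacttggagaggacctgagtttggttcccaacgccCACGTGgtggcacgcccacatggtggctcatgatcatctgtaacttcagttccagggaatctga

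The H2-K1 window held 2 overlapping NF-kB matches, which begin 111 and 110 bases before the start, and a CCAAT box. B2m held the response element core, 139 bases before the start, with an NF-kB match and a CCAAT box. Psmb10 held an E-box, 116 bases before the start, and no match to the other motifs in this window. Among 27025 RefSeq windows of 250 bases, 3.04% held the response element core, 7.18% the activated site, 7.01% the NF-kB consensus, 34.5% a CCAAT box and 6.05% an E-box. For the 198 bases nearest the start, the length shown for Psmb10, the shares were 2.31, 5.54, 5.77, 29.9 and 5.21% in the same order. The Psmb10 bases shown lie farther from the RefSeq start, because the exon bases next to it were left out and not searched. A match describes letters only and is not evidence of binding. Variants of these motifs were not searched. The lack of a marked response element in H2-K1 or Psmb10 is therefore not evidence that the gene has none.

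Both heavy chain genes carry the NF-kB match in a stretch that is nearly the same, which is shown because their levels parted between the libraries. The 30 bases from chr17:34000429-34000458 (minus strand, H2-K1) and chr17:35262923-35262952 (plus strand, H2-D1) differ at 1 position, and capitals mark the NF-kB matches.
H2-K1: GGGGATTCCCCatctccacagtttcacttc
H2-D1: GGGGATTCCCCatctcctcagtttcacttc
Reads of the heavy chains can be told apart at the 3′ end that was sequenced. Of 441 windows of 60 bases in the last 500 bases of the transcript, 22 of H2-D1 (4.99%) also occurred in another gene, and H2-K1 was not among those genes. None of those of the other 9 members did.

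Migratory dendritic cell (DC)-like cells, which carry antigen from tissue to lymph node and were gated on genes such as Fscn1 and Ccr7, had the highest level of 8 of the 10 members in all 3 libraries. There were 91 such cells in control, 169 in DU101 and 42 in DU102. H2-D1 stood there at 3729 CPM in control, 3315 in DU101 and 4122 in DU102. H2-K1 stood at 2355, 2448 and 2521 CPM in the same order, and B2m at 4031, 4675 and 4478. The next type was NK or ILC1-like for H2-K1 (1858, 2117 and 2078 CPM) and patrolling monocyte-like for B2m (3361, 3995 and 3366 CPM), both below migratory DC-like cells beyond counting error. For H2-D1 the next type was patrolling monocyte-like in control and DU102 and pDC-like (plasmacytoid DC-like) in DU101.

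The transporter and tapasin followed the same order at the top. Tap1 stood at 180 CPM in control, 200 in DU101 and 210 in DU102 in migratory DC-like cells, and at 146, 153 and 180 in cDC1-like cells, the DCs that cross-present antigen to CD8 T cells, and these were not apart in DU102. Tap2 stood at 132, 122 and 139 CPM in migratory DC-like cells and was not apart from cDC1-like cells (110, 106 and 116) in any library. Tapbp stood at 265, 277 and 335 CPM there, followed by pDC-like cells with 250, 241 and 261, from which it was not apart in control. Nlrc5 had a level of 72.8, 55.3 and 117 CPM in migratory DC-like cells and of 49.7, 48.9 and 62.3 in T-like cells, and these were not apart in DU101.

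Immunoproteasome subunits peaked in the same DCs, with 1 exception. Psmb8 stood at 1329 CPM in control, 1350 in DU101 and 1271 in DU102 in migratory DC-like cells and at 1291, 1317 and 1220 in cDC1-like cells, which were not apart in any library. Psmb9 was highest in cDC1-like cells (681, 710 and 726 CPM), ahead of migratory DC-like cells (594, 602 and 621). Psmb10 was highest in hepatocyte or tumour-like cells (331, 366 and 299 CPM) and, among white cells, in migratory DC-like cells in control (228 CPM) and NK or ILC1-like cells in the treated libraries (226 and 215 CPM).

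Which white cells lay lowest depended on the gene. In neutrophil-like cells Psmb10 stood at 44.4 CPM in control, 42.7 in DU101 and 26.5 in DU102, the lowest level of that gene in any type. H2-K1 stood at 494, 411 and 515 CPM in neutrophil precursor-like cells and at 554, 429 and 351 CPM in neutrophil-like cells. The precursor-like cells were thus lowest among white cells in control, the neutrophil-like cells in DU102, and they were not apart in DU101. Precursor-like cells numbered 68, 661 and 846. Nlrc5 had no UMI in the mast cell or basophil-like cells of any library, which allows up to 15.6, 7.72 and 22.3 CPM. Lymphocytes were between these ends: T-like cells had 1758, 1946 and 1821 CPM of H2-K1 and 668, 769 and 766 CPM of Psmb8, and B-like cells had 907, 1086 and 950 CPM of H2-K1 and 284, 409 and 403 CPM of Psmb8. Of the 16 steps between neighbours in the order of a member's levels, 4 to 14 were within counting error, so the ends of each order are better set than its middle.

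**Figure D1:**
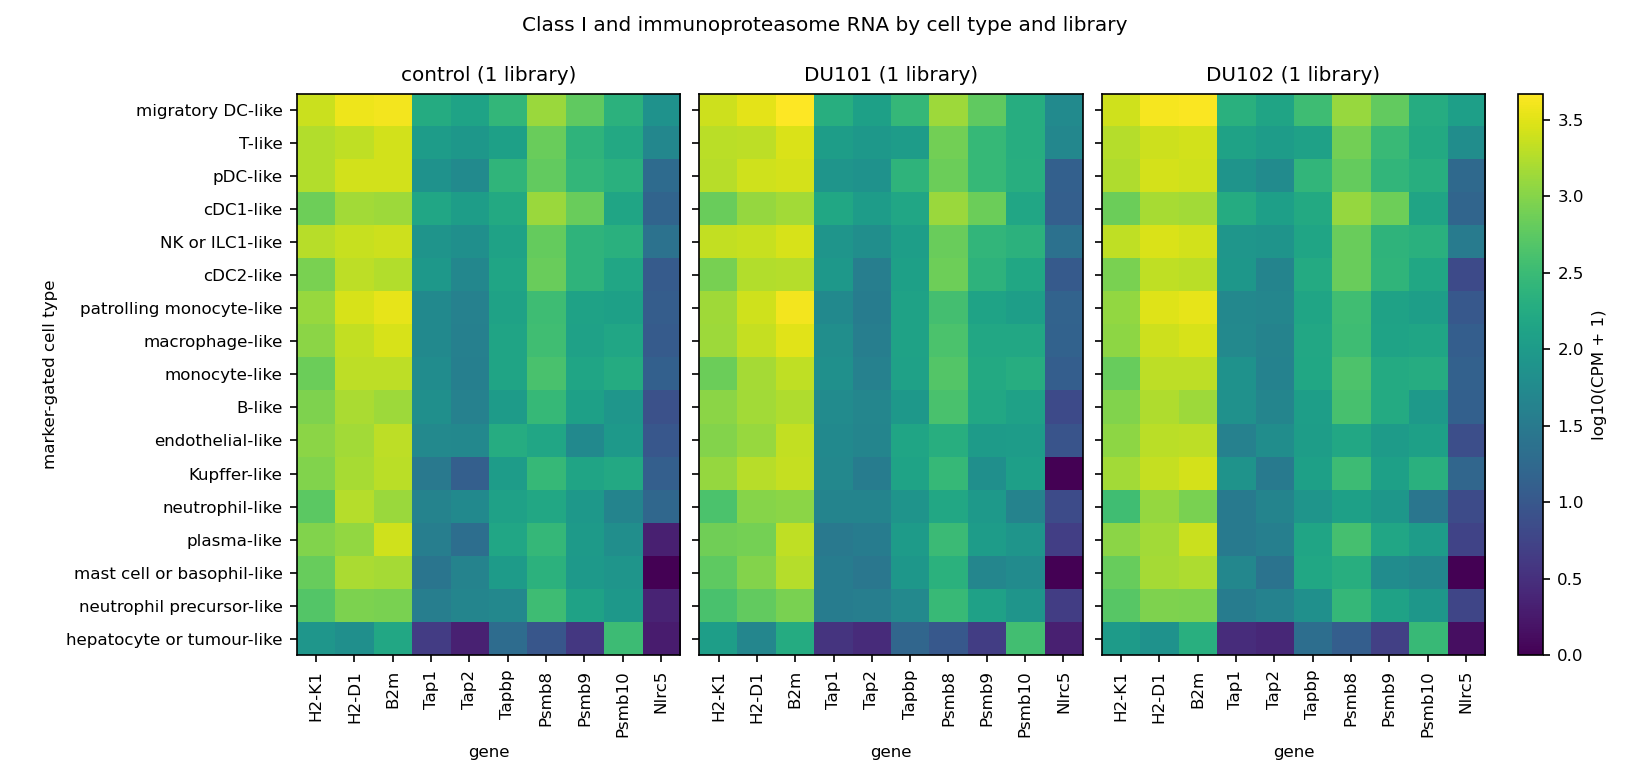
Heat map of log10(CPM + 1), as colour, for the 10 members (columns) in the 17 cell types (rows, by mean level in control), with 1 panel for each library. Hepatocyte or tumour-like cells are the darkest row for every member except Psmb10 and Nlrc5, and Nlrc5 is near 0 also in some small white cell types.

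Across the 17 types of the control library, Psmb8 and Psmb9 had the most similar profile of any pair of members, with a Pearson correlation of log2(CPM + 1) of 0.991, and 0.974 without hepatocyte or tumour-like cells. H2-K1 and B2m followed each other at 0.948. Psmb10 had correlations of -0.22 to 0.34 with the other members, and of 0.30 to 0.73 once hepatocyte or tumour-like cells were left out. Among the 5 other genes most like the mean profile of the members, of 5674 compared, were Tyk2 (0.919), a kinase of interferon receptors, Fnbp1 (0.917), Phf11b (0.896) and Lrrk1 (0.892). Without hepatocyte or tumour-like cells these 4 had 0.840, 0.806, 0.865 and 0.861. These are descriptions over types of 1 library, which share its depth and free RNA.

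In hepatocyte or tumour-like cells 9 members were lower than in T-like cells and Psmb10 was higher, by the 1.5-fold rule, in each of the 3 libraries. Across all genes tested in the same way, 27.3% were called lower and 40.8% higher in control, 29.6 and 35.8% in DU101, and 29.9 and 37.7% in DU102. T-like cells served as the reference because they are the largest class I-bearing lineage of the sort. The median level of the Y-linked genes was 197% of T-like cells in control, 50.3% in DU101 and 68.6% in DU102. Within control these types may therefore mix the sexes differently, which was not tested.

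Heavy and light chain RNA was low but present. H2-K1 stood at 84.6 CPM (75.1 to 94.9) in control, 114 (102 to 127) in DU101 and 103 (94.2 to 112) in DU102, which is 4.81, 5.85 and 5.64% of T-like cells. H2-D1 stood at 65.2, 47.1 and 73.6 CPM, or 3.13, 2.37 and 3.01% of T-like cells. B2m stood at 158, 180 and 203 CPM, or 6.04, 6.18 and 7.67%. Of the 3 chains, B2m had the largest part of its T-like level in every library, though in DU101 it was not apart from H2-K1.

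The transporter and Nlrc5 were close to the counting limit. Tap1 had 12 UMIs in control, 7 in DU101 and 10 in DU102 over all hepatocyte or tumour-like cells, a level of 3.52, 2.60 and 1.95 CPM. Tap2 had 4, 5 and 8 UMIs, and Nlrc5 had 3, 3 and 2. Tapbp stood higher, at 19.1, 15.2 and 20.1 CPM, or 15.9, 14.6 and 16.0% of T-like cells, while Tap1 stood at 3.34, 2.39 and 1.54% and Tap2 at 1.35, 2.08 and 1.49%. Tapasin RNA was thus retained to a larger part than transporter RNA in these cells.

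Of the immunoproteasome subunits, Psmb8 stood at 8.51, 9.28 and 11.3 CPM (1.28, 1.21 and 1.48% of T-like cells) and Psmb9 at 2.94, 3.71 and 3.91 CPM (1.20, 1.28 and 1.26%). Psmb10 stood at 331 CPM (312 to 351) in control, 366 (343 to 389) in DU101 and 299 (284 to 314) in DU102, or 202, 193 and 177% of T-like cells. The constitutive subunits were higher than in T-like cells too: Psmb5 at 182, 214 and 224%, Psmb6 at 177, 193 and 223%, and Psmb7 at 186, 210 and 187%. Psmb10 thus stood beside the constitutive subunits and apart from Psmb8 and Psmb9. Reads assigned to Psmb10 can be shared with neighbours: Lcat, a liver enzyme of plasma cholesterol, ends 1106 bases before Psmb10 begins on the same strand, and Gm16156 overlaps it on the other strand. Lcat stood at 20.3, 18.9 and 40.0 CPM in these cells and at most at 1.51 CPM in a white cell type, and Gm16156 had 0, 1 and 0 UMIs. Their part in the Psmb10 count was not tested.

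**Figure D2:**
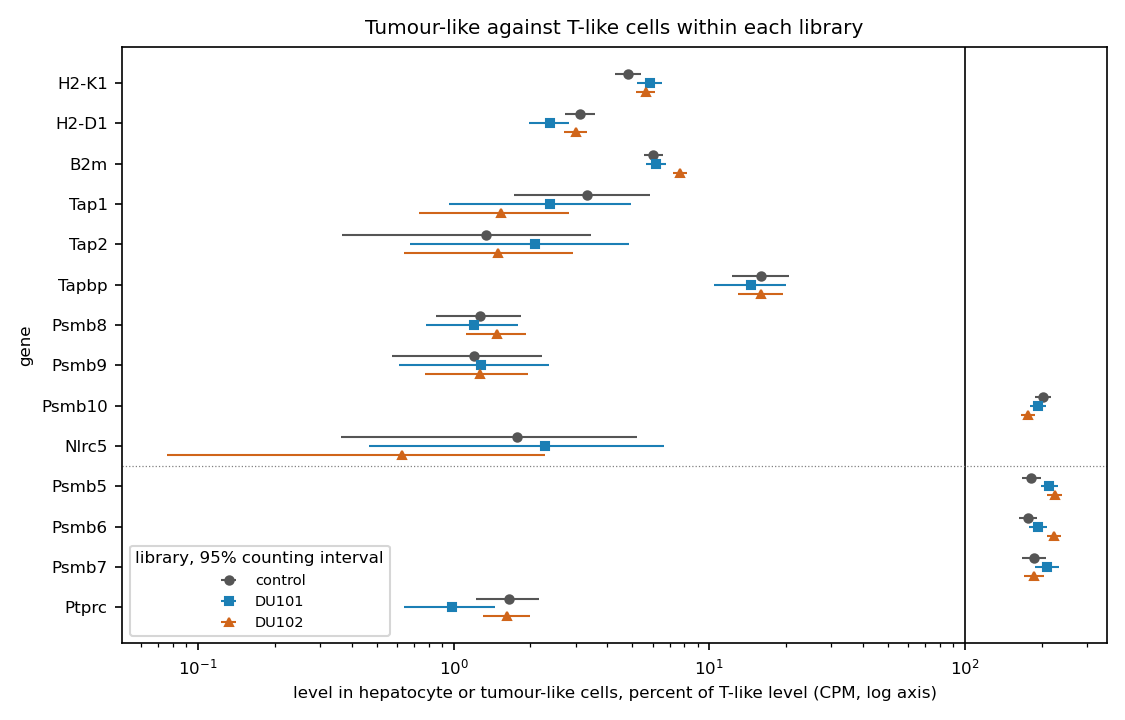
Level in hepatocyte or tumour-like cells as a percent of T-like cells of the same library (log axis), for the 10 members, the 3 constitutive catalytic subunits and Ptprc, with exact 95% intervals. Psmb10 lies at 177 to 202%, beside the constitutive subunits, and the other 9 members lie between 0.627 and 16.0%.

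RNA of white cells was also counted in these cells, so the low levels are upper bounds as far as such RNA adds to them. The summed T-like markers stood at 15.6, 13.4 and 15.4 CPM, with Cd3e at 2.06, 2.23 and 1.56 CPM (0.450, 0.399 and 0.279% of T-like cells). The summed neutrophil-like markers stood at 282 CPM in control, 2220 in DU101 and 3477 in DU102. The part of such RNA in the members' levels was not tested. Per cell, the 3 class I chains together had a median of 2.43, 2.55 and 3.06 UMIs per 10000, and 12.4, 9.65 and 8.33% of the cells had no UMI of them, although these cells are deep, with medians of 12137, 12827 and 15619 UMIs. In T-like cells the median was 65.2 UMIs per 10000 in control, at a median of 5481 UMIs, and no T-like cell of control was without one.

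Further genes of the pathway were read from lists. Of 12 genes of loading and peptide supply, 5, 6 and 6 were lower in hepatocyte or tumour-like cells than in T-like cells in control, DU101 and DU102, and 4, 3 and 4 were higher. Calr, the endoplasmic reticulum chaperone calreticulin, stood at 439, 338 and 462 CPM against 270, 277 and 277 in T-like cells, while Tapbpl, a tapasin-like peptide editor, stood at 10.6, 9.65 and 15.2 against 48.0, 59.2 and 58.6. Of 12 class I-like heavy chains, 9, 8 and 9 were lower and 2 were higher in each library. The 2 were H2-Q10, a soluble class I chain known from liver (91.9, 117 and 78.1 CPM against 14.7, 12.5 and 15.3), and Fcgrt, the neonatal Fc receptor (34.6, 35.3 and 36.7 CPM against 8.28, 12.7 and 10.8). The heavy chains that were higher in hepatocyte or tumour-like cells are thus ones that hepatocytes are known to make.

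Of the 11 other subunits of the proteasome core, none was lower, and 2, 6 and 4 were higher. Of 13 regulators of class I genes, 8, 9 and 7 were lower and 2, 2 and 0 higher. Among the lower was Irf1, a transcription factor of interferon responses, at 11.5, 10.8 and 7.42 CPM against 87.4, 110 and 103 in T-like cells. Of 13 genes induced by type I interferon, 10, 11 and 9 were lower and 1, 0 and 1 higher, and Bst2, which tethers virus particles to the cell, stood at 222, 402 and 314 CPM against 130, 269 and 116. Of the genes induced by interferon-gamma that could be tested, 8 of 9, 9 of 9 and 8 of 8 were lower. Low levels of interferon-responsive genes in these cells were therefore not particular to the members.

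The immunoproteasome share sets each inducible subunit against the constitutive one it replaces, as UMIs of the first in percent of both, and total UMIs do not enter it. For Psmb8 over Psmb8 and Psmb5 it was 3.47% (2.34 to 4.95) in control, 2.94% (1.91 to 4.31) in DU101 and 3.84% (2.93 to 4.93) in DU102 in hepatocyte or tumour-like cells. With cell types taken from clusters these shares were 6.89, 6.79 and 6.15%, and among cells with no Ptprc UMI 2.23% in control and 2.24% in DU102. The median over the 15 white cell types was 72.3, 75.0 and 75.0%, and no white cell type was below 52.3%. For Psmb9 over Psmb9 and Psmb6 it was 1.07, 1.20 and 1.18%, against white cell medians of 49.4, 52.5 and 53.3%. With clusters it was 2.03% in control, with cells weighted alike 3.02% in control and 2.23% in DU101, and with no Ptprc UMI 0.537% in DU102. For Psmb10 over Psmb10 and Psmb7 it was 67.6% (65.3 to 69.8), 68.4% (66.0 to 70.8) and 65.9% (63.9 to 67.8), within the range of white cells, whose medians were 60.2, 58.4 and 60.5%. The RNA of hepatocyte or tumour-like cells thus had the subunit make-up of white cells at 1 of the 3 catalytic positions.

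Within white cells the share followed the type. Migratory DC-like cells had the highest Psmb8 share, 91.6, 90.9 and 95.1%. Among the larger types cDC1-like cells (86.7, 86.0 and 85.3%) and T-like cells (83.7, 84.3 and 85.8%) came next. Macrophage-like cells had a Psmb8 share of 72.3, 75.0 and 70.9% but a Psmb9 share of 31.2, 36.5 and 37.8%. The Psmb10 share was highest in pDC-like cells, at 74.0, 73.5 and 72.2%. In cDC1-like cells it was 47.3, 49.0 and 48.6%, beside a Psmb9 share of 73.9, 74.8 and 75.0%. The pairs of subunits thus did not order the cell types alike at the level of RNA. How well the RNA of each gene is captured was not tested. The sizes of the shares of different pairs are therefore not extents of replacement.

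Between libraries the shares moved by few points. The Psmb9 share in T-like cells was 61.3% in control, 64.7% in DU101 and 67.8% in DU102, and the intervals of both treated libraries were apart from control. It was apart above control in both treated libraries also in monocyte-like cells (42.4, 46.1 and 48.9%) and macrophage-like cells. The Psmb10 share in neutrophil-like cells was 45.5, 45.5 and 36.7%, lower in DU102 than in control, and the Psmb8 share there was 68.9, 66.3 and 62.0%. The Psmb9 share in these cells went the other way, at 49.4, 53.0 and 55.5%, with DU102 apart above control.

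**Figure D3:**
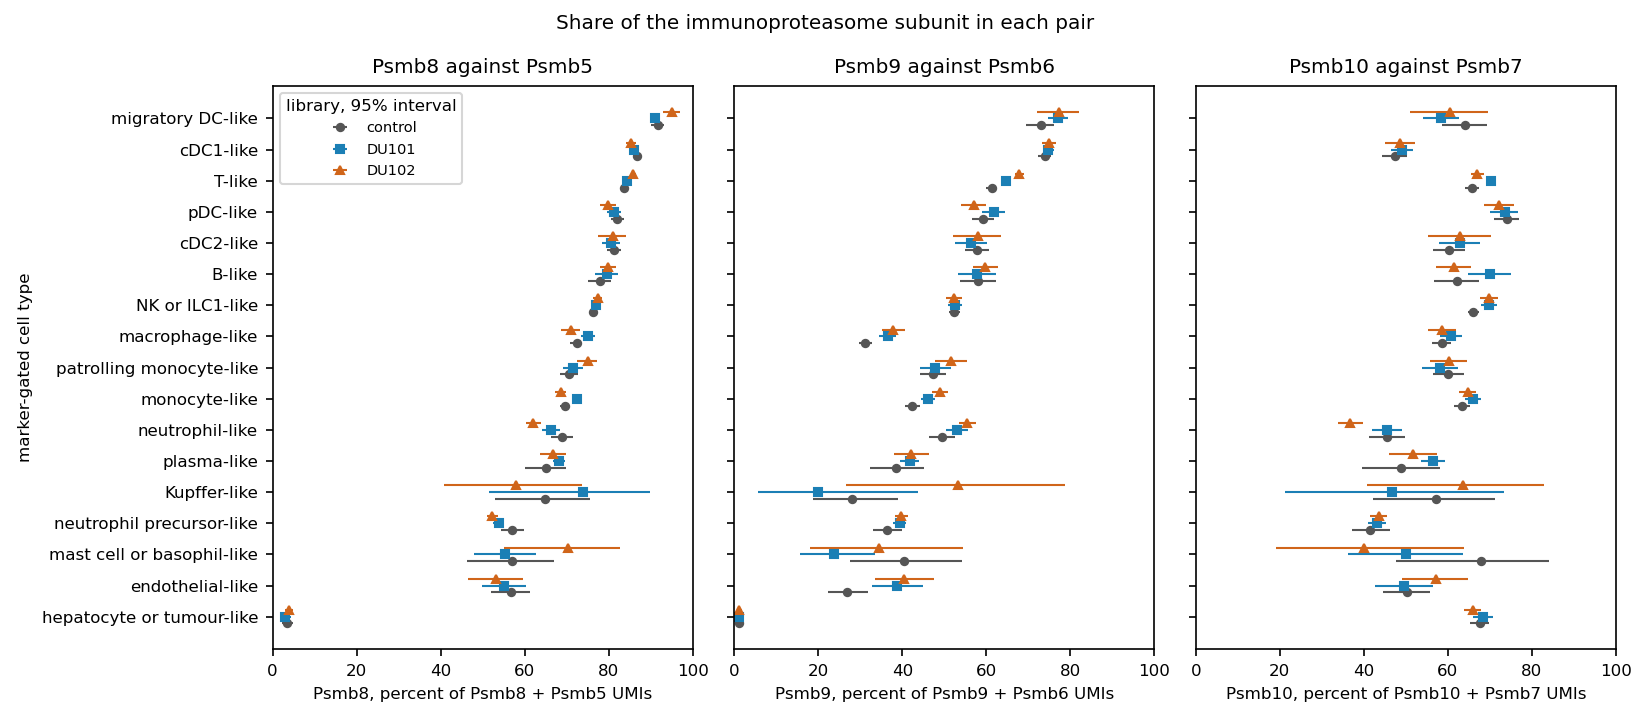
UMIs of Psmb8, Psmb9 and Psmb10 as a percent of each subunit with the constitutive one it replaces, by cell type and library, with exact 95% binomial intervals. In hepatocyte or tumour-like cells Psmb8 and Psmb9 lie at 3.84% or below, and Psmb10 lies at 65.9 to 68.4%, among the white cells.

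Between the libraries most members differed little within a cell type. In DU101 against control, 95 pairs of member and type could be tested, of which 1 was higher and 3 were lower, against 3.72 and 7.68% of all genes tested over the same types. In DU102 against control, 0 of 97 were higher and 5 were lower, against 4.07 and 5.42%. In DU101 against DU102, 1 of 97 was higher and 2 were lower, against 3.72 and 6.57%. The shares of pairs called were 1.05 and 3.16%, 0 and 5.15%, and 1.03 and 2.06%, and the pairs left uncalled made 95.8, 94.8 and 96.9%. Pooled over the types, in none of these comparisons and directions was the share of pairs called above that of all genes. Single types could differ from this, as neutrophil-like cells did below. The median log2 ratio of the pairs tested was 0.05, 0.07 and 0.01 in the same order of comparisons, against -0.07, 0.01 and -0.06 over all genes. These values use all control cells. Against only those control cells that held Y-linked RNA but lacked Xist, 7 pairs were higher and 3 lower in DU101, and 5 were higher and 1 lower in DU102. The share of all genes called in that setting is not given here, so these counts have no background beside them. The 7 higher pairs in DU101 are from types with only 20 to 120 such control cells.

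Counting error was smaller than many of these modest ratios. The interval lay above 1 in 34 of 95 pairs and below 1 in 16 in DU101 against control (12 and 18.1% of all genes), in 31 and 14 of 97 in DU102 against control (12.6 and 12.7%), and in 29 and 26 of 97 in DU101 against DU102 (11.4 and 17%). Abundant genes pass such an interval at smaller ratios than rare ones, and a comparison with genes of like abundance is not given here. With 1 library a group, the spread between animals could not be measured.

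**Figure D4:**
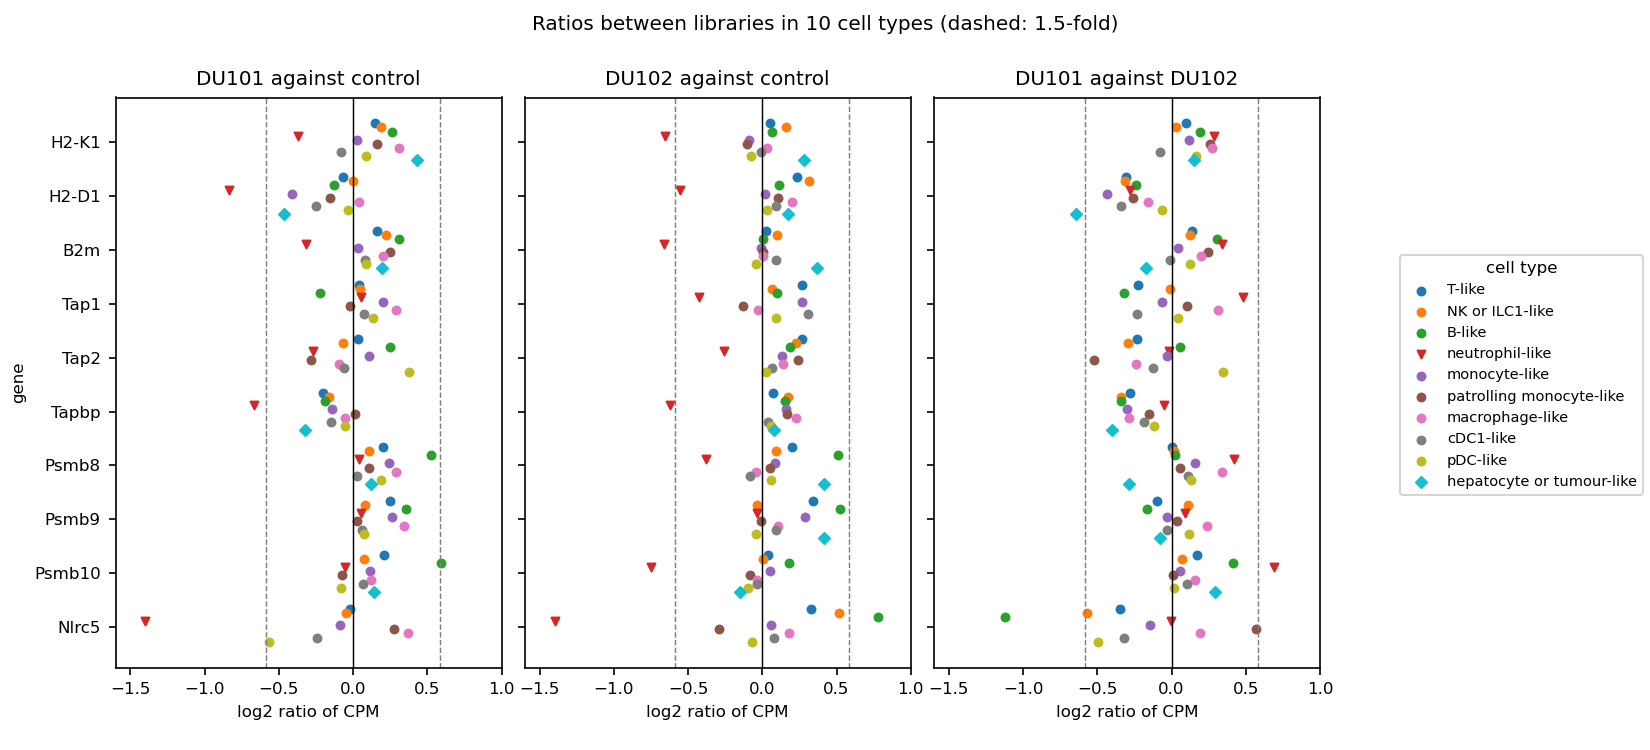
Log2 ratio of each member in the 10 cell types compared, for DU101 against control, DU102 against control and DU101 against DU102, with pairs under 30 UMIs left blank. Lower values gather in neutrophil-like cells against control, and H2-D1 and Tapbp are below 0 in every type of DU101 against DU102.

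Neutrophil-like cells held 8 of the 9 calls against control. H2-D1 stood there at 1828 CPM in control, 1022 in DU101 and 1243 in DU102, and was 1.79-fold lower (1.74 to 1.84) in DU101. H2-K1 stood at 554, 429 and 351 CPM and B2m at 1326, 1065 and 840, and both were 1.58-fold lower in DU102. Both treated libraries were below control for all 3 chains.

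Tapbp stood at 124 CPM in control, 77.7 in DU101 and 80.4 in DU102 in neutrophil-like cells, 1.59-fold lower (1.43 to 1.77) in DU101 and 1.54-fold lower (1.40 to 1.69) in DU102. Psmb10 stood at 44.4, 42.7 and 26.5 CPM, 1.68-fold lower (1.43 to 1.97) in DU102 than in control and 1.62-fold higher (1.39 to 1.87) in DU101 than in DU102, where 8.02% of all genes in these cells were higher. Nlrc5 had 90, 50 and 84 UMIs, or 15.7, 5.97 and 5.97 CPM, and was 2.64-fold lower (1.85 to 3.80) in DU101 and 2.63-fold lower (1.93 to 3.59) in DU102. The treated libraries had the same Nlrc5 level, and the control library stood apart from them.

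Other genes fell with the members in neutrophil-like cells. By the same rule 17.5% of all genes tested there were lower in DU101 and 24.7% in DU102, while 5.88 and 4.83% were higher, and the median log2 ratio of all genes was -0.18 and -0.32. Of the 10 members, 3 were lower in DU101 and 5 in DU102, and 0 were higher. Their median log2 ratio was -0.29 and -0.59, below that of all genes. The 16 markers of neutrophil-like and neutrophil precursor-like cells took 19.0% of the UMIs of these cells in control, 33.6% in DU101 and 36.8% in DU102, and S100a8 alone stood at 62989, 119511 and 128003 CPM. With those 16 genes left out of the total, a setting chosen after the data were seen, Nlrc5 kept its call, at log2 ratios of -1.11 in DU101 and -1.04 in DU102. The others did not: H2-D1 stood at -0.55 and Tapbp at -0.38 in DU101, and H2-K1 and B2m at -0.30, Tapbp at -0.26 and Psmb10 at -0.39 in DU102. Against the control cells selected for Y-linked RNA and for lack of Xist, H2-D1 in DU101 stood at -0.61 and Nlrc5 at -1.18 in both, and these kept their calls. The other 5 calls were lost there: Tapbp stood at -0.50 in DU101, and in DU102 H2-K1 stood at -0.21, B2m at -0.31, Tapbp at -0.45 and Psmb10 at -0.38.

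Outside neutrophil-like cells, Psmb10 in B-like cells was the other call against control. It stood at 82.4 CPM in control, 124 in DU101 and 93.4 in DU102. It had 205 UMIs in control and 218 in DU101, and was 1.51-fold higher (1.24 to 1.83) in DU101, where 4.23% of all genes tested in B-like cells were higher. That ratio lies on the threshold and kept its call in 7 of 13 alternative settings. Nlrc5 in B-like cells had 10 UMIs in DU101 and 44 in DU102, and was 2.18-fold lower (1.08 to 4.85) in DU101, where 8.55% of all genes in B-like cells were lower. H2-D1 in hepatocyte or tumour-like cells had 127 UMIs in DU101 and 377 in DU102, and was 1.56-fold lower (1.27 to 1.93) in DU101, where 9.42% of all genes in these cells were lower. The call was kept in 8 of 12 settings. With cell types taken from clusters its log2 ratio was 0.05.

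The heavy chains parted between the treated libraries. H2-D1 was lower in DU101 than in DU102 in all 10 types with the interval below 1 in each, by 1.04-fold in pDC-like cells to 1.56-fold in hepatocyte or tumour-like cells, with a median log2 ratio of -0.29. H2-K1 was higher in DU101 in 9 of the 10, with the interval above 1 in 7, at a median of 0.16. B2m was higher in 8 of 10, at a median of 0.13. Only the H2-D1 pair in hepatocyte or tumour-like cells reached 1.5-fold. Each count of types here and below rests on the same libraries, so the types are not replicates of the difference. In 12 alternative settings H2-D1 was below in 9 or 10 of the 10 types, with medians of -0.31 to -0.23, and H2-K1 was above in 8 to 10.

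H2-D1 UMIs as a percent of H2-D1 and H2-K1 together give this difference without total UMIs. Other differences between whole libraries can still enter this share. In T-like cells the share was 54.2% (53.8 to 54.7) in control, 50.5% (50.1 to 50.9) in DU101 and 57.4% (57.0 to 57.7) in DU102. In monocyte-like cells it was 74.2, 68.0 and 75.6%, in neutrophil-like cells 76.7, 70.4 and 78.0%, and in hepatocyte or tumour-like cells 43.5, 29.3 and 41.7%. The share was lower in DU101 than in DU102 in 10 of 10 types with intervals apart in all 10, and lower in DU101 than in control in 10 of 10. DU102 was above control in 9 of 10, with hepatocyte or tumour-like cells as the exception. The order of the types was wider than the step between libraries: the share ran from 43.5 to 76.7% over the types of control.

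**Figure D5:**
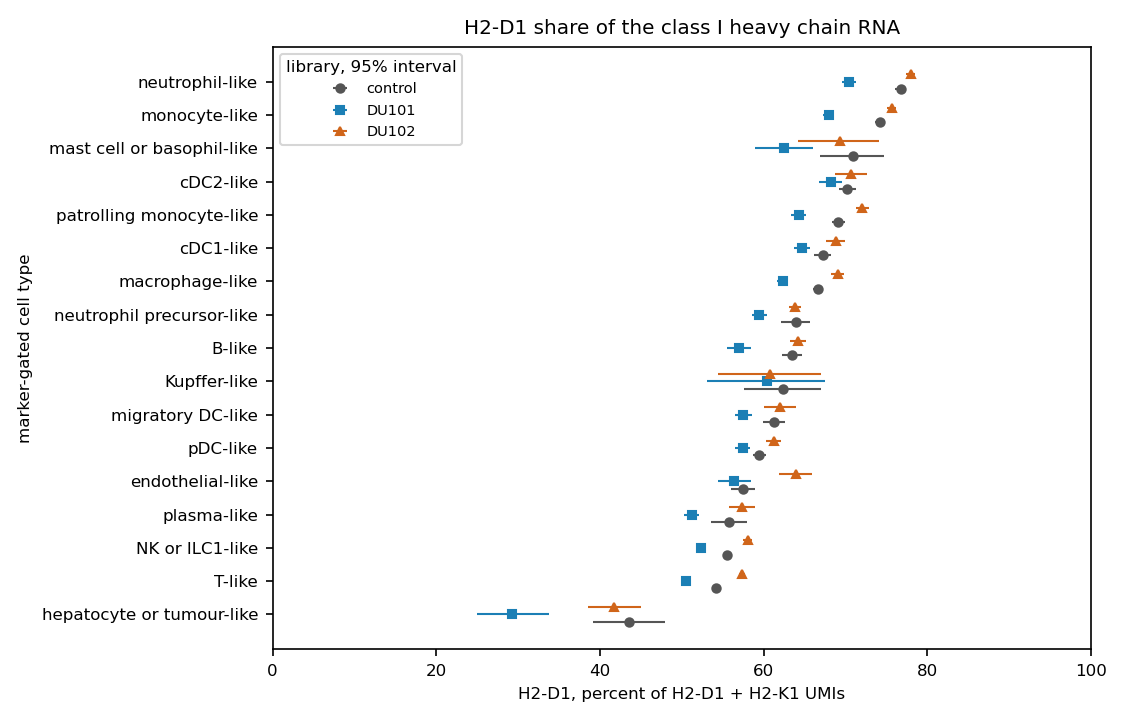
H2-D1 UMIs as a percent of H2-D1 and H2-K1 together, by cell type and library, with exact 95% binomial intervals. In each of the 17 cell types the DU101 point lies below the DU102 point, such as 50.5 against 57.4% in T-like cells. In hepatocyte or tumour-like cells it is 29.3 against 41.7%. The intervals overlap in Kupffer-like (60.4 against 60.8%), cDC2-like (68.2 against 70.7%) and mast cell or basophil-like cells (62.5 against 69.3%).

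Tapbp was lower in DU101 than in DU102 in 10 of 10 types, with the interval below 1 in 6, at a median log2 ratio of -0.28, and this count was 10 of 10 in every alternative setting. Psmb10 was higher in 10 of 10, with the interval above 1 in 4, at a median of 0.13, and higher in 9 or 10 under the alternatives. Psmb8 against control was higher in DU101 in 10 of 10, with the interval above 1 in 6, and B2m in 9 of 10. These ratios are small: the median was 0.16 for Psmb8 and 0.18 for B2m on the log2 scale. As above, the types of a library are not replicates of each other. H2-D1 was below control in DU101 in 8 of 10 types, but in 4 to 10 across settings.

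In T-like cells no member reached 1.5-fold. Nlrc5 stood at 49.7, 48.9 and 62.3 CPM, Tap1 at 106, 109 and 127, Tap2 at 87.3, 89.2 and 105, and Psmb9 at 244, 289 and 309 in control, DU101 and DU102. DU102 had the highest level of these 4, and DU101 was near control for all but Psmb9. T-like cells with Cd8 RNA (CD8 T-like) numbered 762, 1915 and 1426, and those with Cd4 RNA (CD4 T-like) 379, 786 and 499. In CD8 T-like cells the log2 ratio of DU102 to control was 0.48 (0.28 to 0.68) for Nlrc5, 0.45 (0.31 to 0.60) for Tap1 and 0.38 (0.34 to 0.41) for H2-D1. In CD4 T-like cells the ratio of DU102 to control was -0.22 (-0.58 to 0.15) for Nlrc5 and -0.15 (-0.37 to 0.08) for Tap1. It was 0.14 (0.09 to 0.19) for H2-D1. The higher Nlrc5 and Tap1 of DU102 were thus not seen in CD4 T-like cells. Tap2 stood at 105, 90.4 and 134 CPM in CD4 T-like cells, with a log2 ratio of -0.56 (-0.78 to -0.34) for DU101 to DU102.

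Genes induced by type I interferon passed 1.5-fold between libraries in more pairs than the members did. The lists were chosen with earlier results of these data known, so their counts are descriptions and not an independent yardstick. Over the 10 types, 69 of 116 pairs of gene and type were higher in DU101 than in control and 1 was lower, and 78 of 114 were higher in DU101 than in DU102 and 1 was lower, with median log2 ratios of 0.71 and 0.76. B-like cells stood apart in DU101 against control, with 1 of 10 genes higher and a median of -0.06. In DU102 against control 8 of 112 were higher and 12 lower. Isg15, a ubiquitin-like modifier, stood at 133, 244 and 115 CPM in T-like cells in control, DU101 and DU102, and Bst2 at 130, 269 and 116. Genes induced by interferon-gamma were higher in 22 of 76 pairs and lower in 1 in DU101 against control, and higher in 32 of 74 and lower in 3 against DU102. Several members are known to respond to both interferons, and beside these counts 1 of 95 and 1 of 97 pairs of members were higher.

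Class I-like heavy chains stood between the members and the interferon-induced genes. They were higher in 15 of 103 pairs and lower in 4 in DU101 against control, and higher in 31 of 102 and lower in 4 against DU102, with medians of 0.21 and 0.24. H2-T22, a non-classical heavy chain, was higher than in control in 5 of 10 types and higher than in DU102 in 10 of 10, at 77.9, 118 and 77.3 CPM in T-like cells and 31.8, 53.0 and 18.7 in macrophage-like cells. H2-T23, which encodes Qa-1, the ligand of the NK receptor NKG2A, was higher than in DU102 in 8 of 10, at 154, 224 and 146 CPM in T-like cells. Reads that near-identical H2-Q and H2-T genes share were not checked. The non-classical chains H2-T22 and H2-T23 thus differed between the treated libraries by more than H2-K1 or H2-D1 did in T-like cells.

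Other genes of the pathway had few calls between libraries. Genes of loading and peptide supply were higher in 1 and lower in 1 of 120 pairs in DU101 against control, 2 and 2 in DU102 against control, and 1 and 3 in DU101 against DU102. The constitutive catalytic subunits had no call in 30 pairs in any comparison. Other core subunits had 1 call of 110 in DU101 against control and none in the others. Regulators of class I genes were higher in 5 and lower in 4 of 128 pairs in DU101 against control, 5 and 7 of 129 in DU102 against control, and 2 and 5 of 129 in DU101 against DU102. In DU102 against control these are 3.88 and 5.43% of pairs, beside 4.07 and 5.42% of all genes. Rfx5, which binds class I promoters together with Nlrc5, was lower in 3 of 10 types in DU101 against both other libraries. Irf1 in neutrophil-like cells stood at 166, 88.0 and 72.7 CPM.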

How the data were processed

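Raw UMI counts for 32285 genes were deposited by the authors. The software is Cell Ranger, in version 6.0.0 per the file headers and 2.1.1, with mm10, per the submitters' processing notes. The sources used here give neither the annotation release nor the strand setting. The authors' deposited log2 fold changes by cluster were not used. A cell needed 200 genes or more and a mitochondrial share of UMIs up to 10%, which 17.4% of barcodes exceeded in control, 9.09% in DU101 and 14.0% in DU102. Doublets called by Scrublet (0.008 per 1000 barcodes, among cells with at most 20% mitochondrial UMIs; 2.53, 3.14 and 2.06%) were removed. Median UMIs of kept cells were 6336, 4832 and 5091. A cell took the type for which it held at least 3 of 8 markers, with a lead of at least 1 over other types, and 980, 1614 and 1190 cells took none. UMIs were summed by type and library and scaled to CPM. Every member is named, with the 5 other genes of at least 20 CPM on average whose profile is most like theirs and the list genes called in the most types, except 1 gene that is not reported here. The members and lists were chosen with earlier results of these data known. The calls were tested on simulated data. In all, 13 alternative settings were tried. The tools were scanpy 1.11.5, anndata 0.12.19, igraph 0.11.9, scikit-learn 1.9.0, scipy 1.17.1, numpy 2.4.6, pandas 2.3.3 and matplotlib 3.10.9 under Python 3.11.15.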

Additional observations from a re-analysis of the deposited data

Results flagged for a closer look

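Some members had log2 ratios against control of opposite sign in different cell types, each with its interval on that side or near 0, and the differences between types were not tested. H2-D1 in DU101 stood at -0.84 in neutrophil-like and 0.04 in macrophage-like cells. In DU102, H2-K1 stood at -0.66 in neutrophil-like and 0.28 in hepatocyte or tumour-like cells, and B2m at -0.66 and 0.37 in the same types. Tapbp stood at -0.62 in neutrophil-like and 0.23 in macrophage-like cells, and Nlrc5 at -1.40 in neutrophil-like and 0.52 in NK or ILC1-like cells. Each low value is in neutrophil-like cells, where the markers of that lineage took 19.0% of UMIs in control, 33.6% in DU101 and 36.8% in DU102.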

How the results depend on the processing

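Of 153 values of called pairs under the alternatives, 117 kept their call, 34 lost it and 2 turned direction, and 134 of 172 counts and shares stayed within the limits set for a change. The turned values were H2-D1 in hepatocyte or tumour-like cells, DU101 against DU102, at 0.053 with cell types from clusters, and Psmb10 in neutrophil-like cells, DU102 against control, at 0.0014 with cells weighted alike. Pairs higher in DU101 against control were 0 with at most 5% or at most 20% mitochondrial UMIs, with 1 marker more in the gate, with cells weighted alike and with a total without mitochondrial, ribosomal protein and haemoglobin genes, Lars2 and Gm42418, 2 with ratios centred on the median of all genes, and 7 where control was limited to cells that held Y-linked RNA but lacked Xist. Pairs higher in DU102 against control were 1 with at most 5% mitochondrial UMIs, doublets kept, types from clusters or cells weighted alike, and 5 against those Y-linked control cells. Pairs lower in DU102 against control were 3 with cells weighted alike and 1 with centred ratios, with Y-linked control cells or without neutrophil-lineage markers in the total, a setting which also left 1 lower in DU101 against control. In DU101 against DU102, pairs higher were 0 with types from clusters or centred ratios and 2 with cells weighted alike, and pairs lower were 1 with at most 20% mitochondrial UMIs, types from clusters or centred ratios and 4 with cells weighted alike. In hepatocyte or tumour-like cells from clusters the Psmb8 share was 6.89, 6.79 and 6.15% in control, DU101 and DU102, the Psmb9 share 2.03% in control and the Psmb10 share 70.0, 72.3 and 68.5%. With cells weighted alike the Psmb9 share was 3.02% in control and 2.23% in DU101, and the Psmb8 share 5.48% in DU102. Among such cells with no Ptprc UMI the Psmb8 share was 2.23% in control and 2.24% in DU102 and the Psmb9 share 0.537% in DU102, and with at most 5% mitochondrial UMIs the Psmb10 share was 72.8% in control. The cause of these changes was not tested. Only 20 hepatocyte or tumour-like, 31 cDC1-like and 35 pDC-like control cells remained in the Y-linked setting. No paired analysis was possible because each group has 1 library, and for the same reason no replicate could be left out. Depth limits Tap1, Tap2 and Nlrc5 in hepatocyte or tumour-like cells, with at most 12 UMIs in a library.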
